A study of Mus musculus with 12 samples.

Results

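10 serum proteins made by visceral endoderm and liver were followed at the transcript level in 4 sorted cell fractions of the mouse embryo at embryonic day 7.5: the apolipoproteins Apoa1, Apoa4, Apob, Apoc2, Apoe and Apom and the carriers Ttr, Rbp4, Afp and Trf. The genes were taken by name. All probes with one of these 10 gene names in the scanner files were used, 13 probes of 41174 on the array and 10 genes of 27548. The study pooled about 300 embryos of strain CD-1 from 25 litters, stained whole embryos with antibodies to Endoglin and Flk1, and sorted 3000 cells per sample, with 3 samples and 3 arrays per fraction. The fractions carried both proteins (Eng+Flk1+), Endoglin without Flk1 (Eng+Flk1-), Flk1 without Endoglin (Eng-Flk1+) or neither (Eng-Flk1-). Endoglin is a co-receptor of the TGF-beta family and Flk1 a receptor for vascular endothelial growth factor, both found on precursors of blood and vessels. The labels give 1 strain and 1 age for all samples and name no treatment or mutation, so the groups are defined by the 2 sorting markers. Because 1 pool gave every sample, the replicates are sorted samples rather than separate animals, and p-values cover that spread only, which may be technical. Messenger RNA was amplified by a global PCR method and 250 ng of cDNA was labelled for each 1-colour Agilent array.

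Visceral endoderm is the epithelium that surrounds the early mouse embryo and feeds it before a placenta forms. It takes up maternal protein and lipid, packs lipid into lipoprotein particles and secretes serum proteins, much as liver does later. Apolipoproteins are the protein parts of lipoprotein particles. Apob forms the scaffold of the lipid-rich particles. The exchangeable apolipoproteins, among them Apoa1, Apoa4, Apoc2 and Apoe, bind to the surface of particles and steer lipases and receptors. Ttr carries thyroid hormone and, together with Rbp4, retinol. Trf is transferrin, the iron carrier, and Afp is alpha-fetoprotein.

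The probe sequences of Apob, of Apoa1 and Apoa4, which stand near each other on chromosome 9, and of Apoe for contrast are shown as the files list them, with positions in build mm8. Apob is the gene with the most probes, 4 in all, and these stand on different stretches of the gene. Probes 3 and 4 abut end to end. Each sequence holds at least 1 forward frame with no stop codon.
Apob probe 1, chr12:8024684-8026893, plus strand: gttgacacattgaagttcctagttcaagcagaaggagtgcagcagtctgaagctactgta
Apob probe 2, chr12:8037943-8038002, plus strand: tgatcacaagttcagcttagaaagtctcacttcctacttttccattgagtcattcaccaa
Apob probe 3, chr12:8042336-8042395, plus strand: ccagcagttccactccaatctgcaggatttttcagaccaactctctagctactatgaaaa
Apob probe 4, chr12:8042396-8042455, plus strand: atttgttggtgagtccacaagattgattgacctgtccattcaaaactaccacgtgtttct
Apoa1 probe, chr9:45980833-45980892, plus strand: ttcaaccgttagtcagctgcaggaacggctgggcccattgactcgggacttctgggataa
Apoa4 probe, chr9:45992573-45993316, plus strand: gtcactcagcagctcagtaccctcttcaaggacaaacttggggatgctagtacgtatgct
Apoe probe, chr7:18854905-18854964, minus strand: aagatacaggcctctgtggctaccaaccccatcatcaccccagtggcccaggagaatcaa

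Each level is the log2 signal of a probe minus that array's 75th percentile, so a difference of 1 is a doubling, and levels of different probes cannot be set against each other. Tested genes had a probe well above background on every array of 1 or more fractions, and a gene was called at an adjusted p under 0.05 (limma, Benjamini-Hochberg over 22720 genes). Of the 10 genes 9 were tested, and 8 of them were well above background on all 12 arrays. Rbp4 passed through the Eng+Flk1- arrays, and Afp was not tested. No spot was saturated. Of the spots, 66.5% to 76.3% were well above background on the Eng-Flk1- arrays and 80.2% to 83.3% on the other 9. Pairs of arrays of a fraction correlated across genes at 0.674 to 0.720 in Eng-Flk1-, against 0.812 to 0.912 elsewhere. Of the sorting markers, Kdr, the gene of Flk1, was higher in Eng+Flk1+ than in Eng-Flk1- by 7.83 ± 0.96 (SE, limma adjusted p = 0.00263) and in Eng-Flk1+ by 7.31 ± 0.96 (0.00526). Kdr was well above background on 1 of 3 Eng-Flk1- arrays, so the size of these differences rests on dim signals. Eng, the gene of Endoglin, had differences from Eng-Flk1- of 2.59 ± 0.69 for Eng+Flk1+, 0.97 for Eng+Flk1- and 0.98 for Eng-Flk1+, none called (limma adjusted p = 0.0936, 0.550 and 0.472). Between Eng-Flk1+ and Eng+Flk1- its difference was 0.01, so Eng transcript did not separate those fractions in the way their labels do.

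Transcripts of Apoa1, Apoa4, Apob, Apoc2 and Ttr were lower in each of the 3 fractions that carry a sorting marker than in Eng-Flk1-. The median difference of the 9 genes was -3.73 for Eng+Flk1+, -3.26 for Eng+Flk1- and -4.07 for Eng-Flk1+, against medians over all genes tested of -0.06, -0.06 and -0.13. In Eng+Flk1+ against Eng-Flk1- 5 of 9 fell, where 0.409% of all genes tested were called lower. In Eng+Flk1- it was 5 of 9 against 0.224% of all genes, and in Eng-Flk1+ 5 of 9 against 0.273%. The same 5 genes make up each count. These 3 comparisons share the Eng-Flk1- arrays, so they are not independent of each other. The fit takes a single spread for a gene. Arrays of Eng-Flk1- varied most, with a median SD of 1.01 over the genes tested, against 0.56 to 0.67 elsewhere. Standard errors and p-values of these comparisons may thus be too small. Fewer of the 9 genes were called with array weights, or with only the compared fractions in the fit. Apoe, Apom, Rbp4 and Trf also had negative differences in all 3 comparisons, and none was called. In bulk arrays, fewer cells that make a transcript and less of it per cell cannot be told apart.

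**Figure D1:**
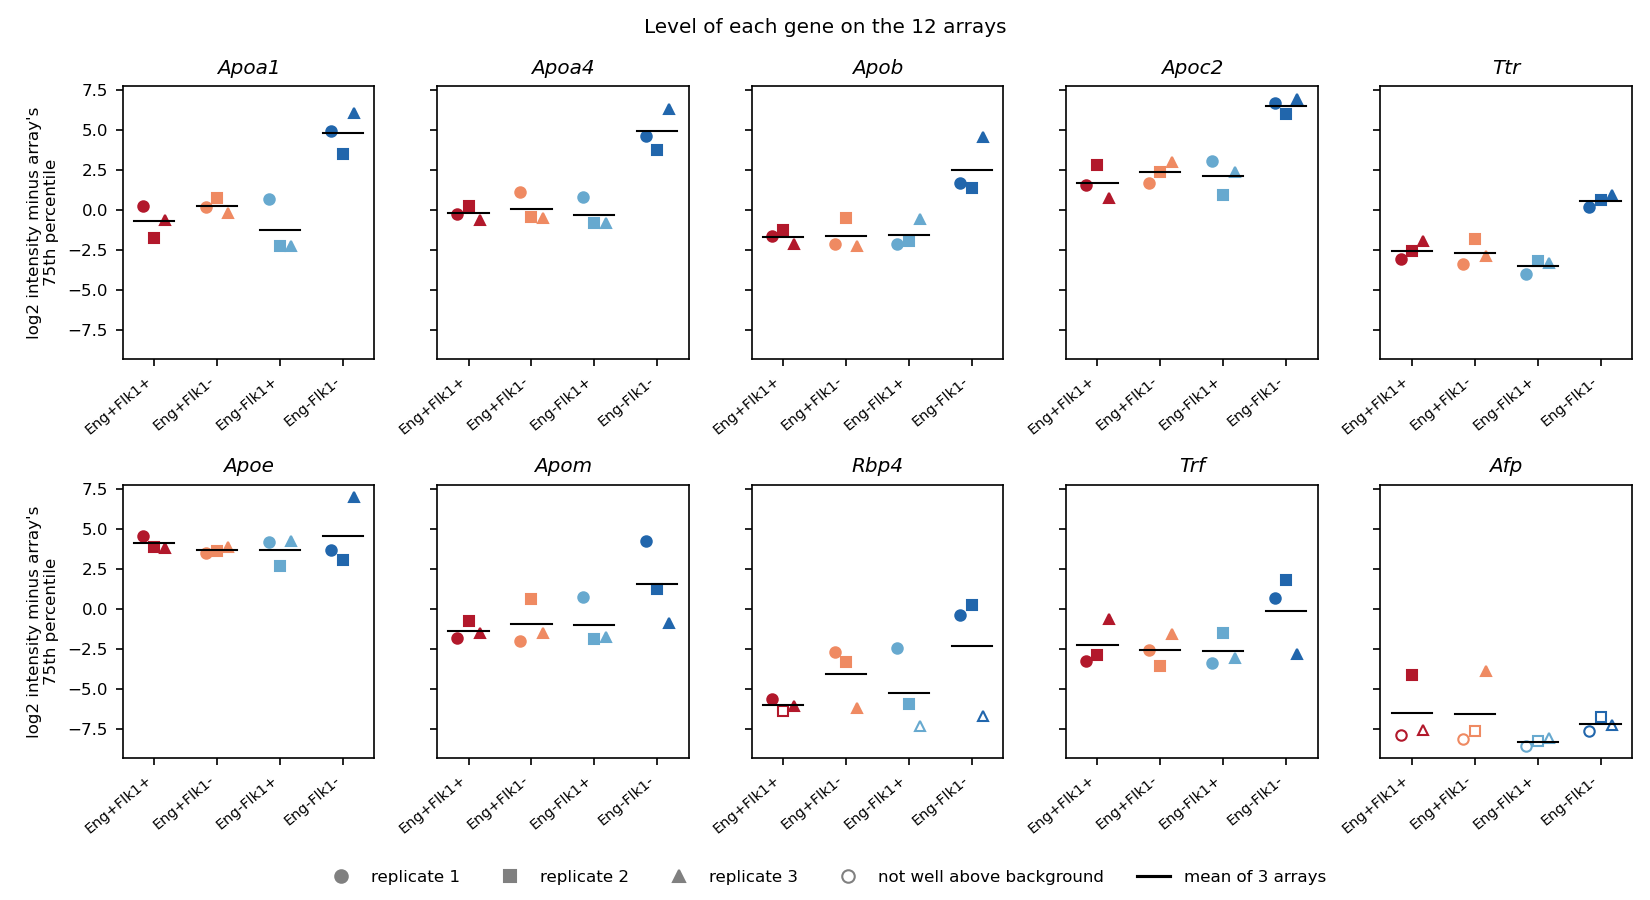
Level of each of the 10 genes (1 probe per gene, log2 intensity minus the 75th percentile of the array) on the 12 arrays, by fraction, with the mean of 3 arrays as a line and open symbols where the probe was not well above background. The 3 Eng-Flk1- arrays lie above all other arrays for Apoa1, Apoa4, Apob, Apoc2 and Ttr, and are split for Apoe, Apom, Rbp4 and Trf.

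Apob, the scaffold protein, was read first by the probe with the highest mean level. That probe had levels of -1.65, -1.25 and -2.14 for Eng+Flk1+, -2.14, -0.49 and -2.23 for Eng+Flk1-, and -2.16, -1.91 and -0.60 for Eng-Flk1+, against 1.66, 1.36 and 4.54 for Eng-Flk1-. All 9 arrays of the marker-positive fractions lay below all 3 Eng-Flk1- arrays, of which replicate 3 stood above the other two. Such complete separation of 3 arrays below 3 was found in 9.15% of all genes tested for Eng+Flk1+, 10.1% for Eng+Flk1- and 12.6% for Eng-Flk1+. The differences from Eng-Flk1- were -4.21 ± 0.85 for Eng+Flk1+ (limma adjusted p = 0.0308), -4.14 ± 0.85 for Eng+Flk1- (0.0449) and -4.08 ± 0.85 for Eng-Flk1+ (0.0398). Of the 5 called genes Apob kept its calls least often, in 36 of 73 values under other settings, and in Eng+Flk1- it was not called without Eng-Flk1- replicate 3 (-3.13, limma adjusted p = 0.0507).

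The other 3 Apob probes gave differences in the same direction when every probe was tested on its own. Probe 3 had levels of -3.36, -2.56 and -2.55 for Eng+Flk1+, -0.84, -1.97 and -2.44 for Eng+Flk1-, and -1.24, -3.71 and -3.78 for Eng-Flk1+, against 2.93, 2.07 and 3.16 for Eng-Flk1-. With this probe the 3 Eng-Flk1- arrays stood close together, unlike with the first. Its differences were -5.54 ± 0.74 for Eng+Flk1+, -4.47 ± 0.74 for Eng+Flk1- and -5.63 ± 0.74 for Eng-Flk1+, all called (limma adjusted p = 0.00300, 0.0130 and 0.00343). Probe 4, which abuts it, gave -6.28, -4.69 and -6.56 in the same order, also all called. Probe 2 was not well above background on Eng+Flk1+ replicate 1 and Eng-Flk1+ replicate 2. It was called for Eng+Flk1+ alone (-5.11 ± 1.11, limma adjusted p = 0.0361), with -3.10 ± 1.11 for Eng+Flk1- (0.220) and -4.33 ± 1.11 for Eng-Flk1+ (0.0747).

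**Figure D2:**
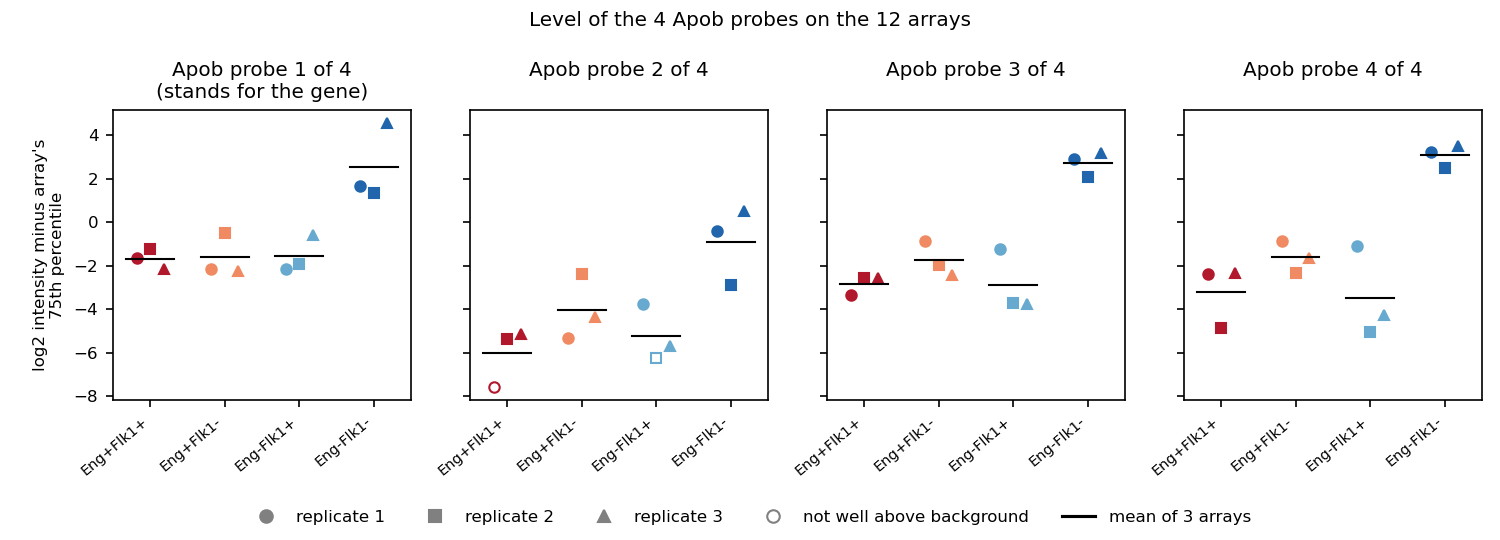
Levels of the 4 Apob probes (log2 intensity minus the 75th percentile of the array) on the 12 arrays, by fraction, with the mean of 3 arrays as a line. The Eng-Flk1- arrays are the highest for probes 1, 3 and 4, while for probe 2 Eng-Flk1- replicate 2, at -2.89, lies below Eng+Flk1- replicate 2, at -2.40.

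Apoa1, the main protein of high-density lipoprotein, had levels of 0.26, -1.77 and -0.60 for Eng+Flk1+, 0.18, 0.77 and -0.18 for Eng+Flk1-, and 0.69, -2.29 and -2.25 for Eng-Flk1+, against 4.98, 3.48 and 6.07 for Eng-Flk1-. The Eng-Flk1- arrays did not overlap with any other array. Apoa1 was lower than in Eng-Flk1-, with log2 differences of -5.55 ± 0.92 for Eng+Flk1+ (limma adjusted p = 0.0120), -4.59 ± 0.92 for Eng+Flk1- (0.0404) and -6.13 ± 0.92 for Eng-Flk1+ (0.00907). On the linear scale these are 46.8-fold, 24.0-fold and 69.8-fold lower.

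Apoa4, which is known from chylomicrons and high-density lipoprotein, had levels of -0.25, 0.23 and -0.62 for Eng+Flk1+, 1.15, -0.42 and -0.51 for Eng+Flk1-, and 0.78, -0.84 and -0.85 for Eng-Flk1+, against 4.66, 3.76 and 6.36 for Eng-Flk1-. The groups again did not overlap, and replicate 3 was the highest Eng-Flk1- array for Apoa4 as for Apoa1. The differences were -5.14 ± 0.75 for Eng+Flk1+ (limma adjusted p = 0.00641), -4.86 ± 0.75 for Eng+Flk1- (0.0128) and -5.23 ± 0.75 for Eng-Flk1+ (0.00772).

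Apoc2, the cofactor of lipoprotein lipase, had levels of 1.56, 2.82 and 0.74 for Eng+Flk1+, 1.68, 2.37 and 2.99 for Eng+Flk1-, and 3.05, 0.96 and 2.37 for Eng-Flk1+, against 6.68, 5.99 and 6.97 for Eng-Flk1-. Its 3 Eng-Flk1- arrays lay close together, with an SD of 0.50. Apoc2 was lower, with differences of -4.84 ± 0.69 for Eng+Flk1+ (limma adjusted p = 0.00537), -4.20 ± 0.69 for Eng+Flk1- (0.0167) and -4.42 ± 0.69 for Eng-Flk1+ (0.0105).

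Apoe, a ligand of the low-density lipoprotein receptor family, was bright in every fraction and behaved unlike the genes above. Its levels were 4.59, 3.91 and 3.84 for Eng+Flk1+, 3.49, 3.66 and 3.86 for Eng+Flk1-, and 4.20, 2.68 and 4.25 for Eng-Flk1+, against 3.67, 3.06 and 6.99 for Eng-Flk1-. Only Eng-Flk1- replicate 3 stood apart, and the other two lay within the range of the remaining fractions. Apoe differed from Eng-Flk1- by -0.46 for Eng+Flk1+ (95% interval -2.43 to 1.52), by -0.91 for Eng+Flk1- (-2.88 to 1.07) and by -0.86 for Eng-Flk1+ (-2.84 to 1.11), none called (limma adjusted p = 0.846, 0.679 and 0.634). Without Eng-Flk1- replicate 3 the signs turned, to 0.75, 0.30 and 0.34 in the same order, and without replicate 2 they were -1.22, -1.67 and -1.62, none called. The intervals reach several-fold lower levels, and less far on the higher side.

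Apom, a lipocalin of high-density lipoprotein that carries sphingosine 1-phosphate, had levels of -1.81, -0.75 and -1.50 for Eng+Flk1+, -1.98, 0.65 and -1.52 for Eng+Flk1-, and 0.72, -1.91 and -1.74 for Eng-Flk1+, against 4.27, 1.24 and -0.87 for Eng-Flk1-. Here replicate 1 was the highest Eng-Flk1- array and replicate 3 lay among the other fractions. The differences of -2.90 ± 1.23 for Eng+Flk1+, -2.50 ± 1.23 for Eng+Flk1- and -2.52 ± 1.23 for Eng-Flk1+ were not called (limma adjusted p = 0.292, 0.386 and 0.312). Without Eng-Flk1- replicate 3 they were -4.11, -3.71 and -3.73, and none passed the threshold (limma adjusted p = 0.151 for Eng+Flk1- and 0.128 for Eng-Flk1+). Without replicate 1 they were -1.54, -1.14 and -1.17 (0.457, 0.601 and 0.548).

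Ttr, the carrier of thyroid hormone, was the only one of the carriers that was called. Its levels were -3.07, -2.58 and -1.97 for Eng+Flk1+, -3.38, -1.79 and -2.88 for Eng+Flk1-, and -4.00, -3.17 and -3.30 for Eng-Flk1+, against 0.20, 0.60 and 0.94 for Eng-Flk1-. No array of another fraction reached the lowest Eng-Flk1- array. Ttr was lower, with differences of -3.12 ± 0.52 for Eng+Flk1+ (limma adjusted p = 0.0119), -3.26 ± 0.52 for Eng+Flk1- (0.0141) and -4.07 ± 0.52 for Eng-Flk1+ (0.00439).

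Rbp4, the retinol carrier that travels bound to Ttr, did not share this pattern on all arrays. Its levels were -5.62, -6.37 and -6.11 for Eng+Flk1+, -2.71, -3.32 and -6.19 for Eng+Flk1-, and -2.47, -5.97 and -7.34 for Eng-Flk1+, against -0.39, 0.22 and -6.73 for Eng-Flk1-. Eng-Flk1- replicates 1 and 2 were the 2 highest of the 12 arrays, while replicate 3, like Eng+Flk1+ replicate 2 and Eng-Flk1+ replicate 3, was not well above background. Rbp4 differed by -3.73 for Eng+Flk1+ (95% interval -7.71 to 0.24), by -1.78 for Eng+Flk1- (-5.75 to 2.20) and by -2.96 for Eng-Flk1+ (-6.94 to 1.01), none called (limma adjusted p = 0.351, 0.688 and 0.407). Without Eng-Flk1- replicate 3 these were -5.95, -3.99 and -5.18, still not called (limma adjusted p = 0.0537, 0.191 and 0.0887). Without replicate 1 they were -2.78, -0.82 and -2.01, and without replicate 2 -2.47, -0.52 and -1.70, so the size rests on which Eng-Flk1- arrays are used.

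Trf, transferrin, had levels of -3.23, -2.90 and -0.63 for Eng+Flk1+, -2.54, -3.54 and -1.59 for Eng+Flk1-, and -3.38, -1.49 and -3.07 for Eng-Flk1+, against 0.68, 1.82 and -2.81 for Eng-Flk1-. As with Rbp4, Eng-Flk1- replicates 1 and 2 were the highest of all arrays and replicate 3 was not. The differences were -2.15 ± 1.16 for Eng+Flk1+, -2.45 ± 1.16 for Eng+Flk1- and -2.54 ± 1.16 for Eng-Flk1+, not called (limma adjusted p = 0.406, 0.368 and 0.286). Without that array they were -3.51, -3.81 and -3.90, not called either (limma adjusted p = 0.0881, 0.0807 and 0.0673). Without Eng-Flk1- replicate 2 they were -1.19, -1.49 and -1.58 (0.614, 0.525 and 0.446).

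Afp, the major serum protein of the yolk sac and fetal liver, was well above background on 2 of 12 arrays, Eng+Flk1+ replicate 2 at -4.13 and Eng+Flk1- replicate 3 at -3.92. On the other 10 arrays, all of Eng-Flk1+ and Eng-Flk1- among them, the single Afp probe was not well above background. It was spotted 10 times on each array, and no fold is given for it.

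**Figure D3:**
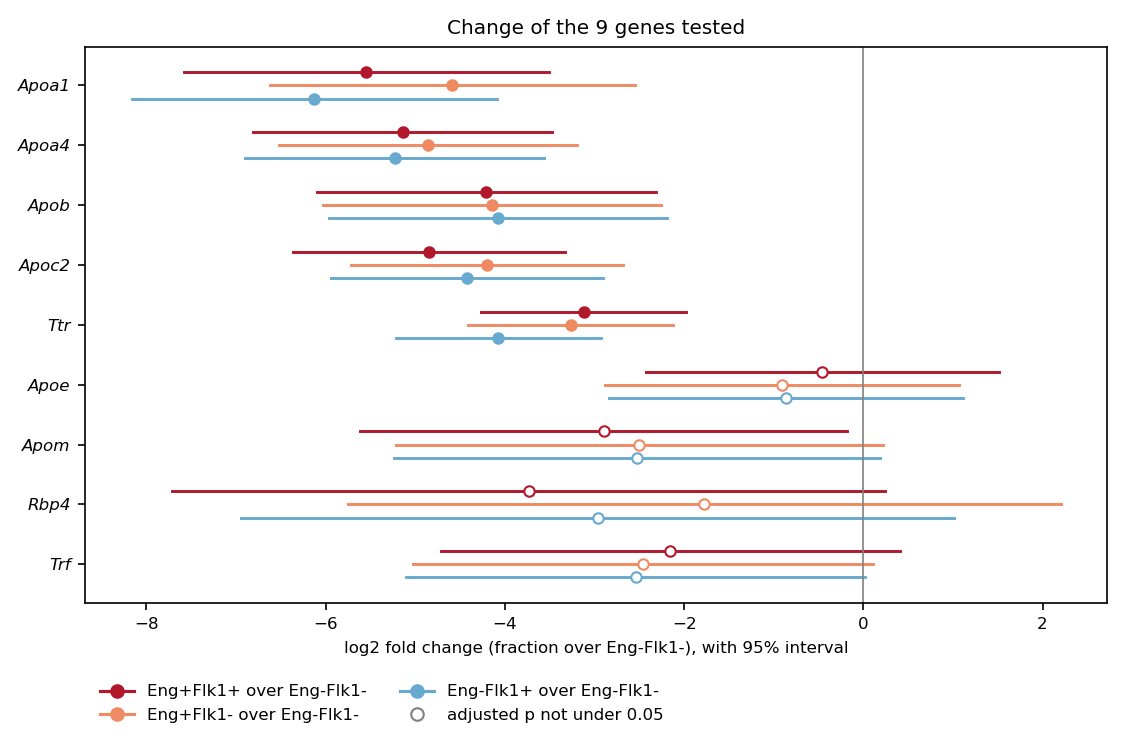
Log2 fold change of the 9 tested genes in Eng+Flk1+, Eng+Flk1- and Eng-Flk1+ over Eng-Flk1- with 95% intervals, filled where the adjusted p was under 0.05. The 5 called genes lie between -6.13 and -3.12, while the intervals of Apoe, Rbp4 and Trf reach 0 in each comparison and that of Apom in Eng+Flk1- and Eng-Flk1+.

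The 9 genes showed no called difference among the 3 fractions that carry a marker. In Eng+Flk1+ against Eng-Flk1+ 0 of 9 were called, where 0.0264% of all genes tested were called in either direction, and 0 of 9 had an unadjusted p under 0.05. In Eng+Flk1+ against Eng+Flk1- it was 0 of 9 against 0.268%, and in Eng-Flk1+ against Eng+Flk1- 0 of 9 against 0.101%, again with 0 at an unadjusted p under 0.05 in each. Over all 22720 genes tested, 1085, 1498 and 1220 had an unadjusted p under 0.05 in these comparisons. Medians of the 9 differences were 0.09, -0.28 and -0.22 in the same order. The widest was that of Rbp4 in Eng+Flk1+ against Eng+Flk1-, -1.96 (95% interval -5.94 to 2.02, limma adjusted p = 0.999). So among the marker-positive fractions the order of levels is not settled for any of the 9 genes.

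Whether the 2 markers combine additively was tested as an interaction, the effect of Endoglin among Flk1 positive cells minus that among Flk1 negative cells. This contrast uses the same Eng-Flk1- arrays as the differences above. Its estimate is positive wherever Eng-Flk1- is high and the marker-positive fractions lie near each other, so it is not separate evidence. All 9 genes had positive estimates, with a median of 3.77 against 0.13 over all genes tested, and 0 of 9 were called, where 0.273% of all genes were. Ttr came closest (4.22 ± 0.73, limma adjusted p = 0.0527), followed by Apoa4 (4.94 ± 1.07, 0.107). By unadjusted p under 0.05 the count was 5 of 9, against 2390 of all 22720 genes. Ttr was called when every probe was tested on its own (limma adjusted p = 0.0437).

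The Eng-Flk1- arrays disagreed with each other over several of these genes. The median SD within Eng-Flk1- was 1.76 for the 9 genes and 1.01 for all genes tested, against 0.54 to 1.02 for the 9 genes and 0.56 to 0.67 for all genes in the other fractions. Replicate 3 was the highest Eng-Flk1- array for Apoa1, Apoa4, Apob, Apoc2, Apoe and Ttr and the lowest for Apom, Rbp4 and Trf. Replicate 3 minus replicate 1 was -5.13 for Apom, outside the middle 90% of all genes, which ran from -4.94 to 4.42. Rbp4 was not well above background on replicate 3, so its difference is not measured exactly. The same difference was 3.32 for Apoe and 2.88 for Apob, inside that range. Replicate 3 was also the array with the lowest share of spots well above background, 66.5%, and the part of this in the differences between replicates was not tested.

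**Figure D4:**
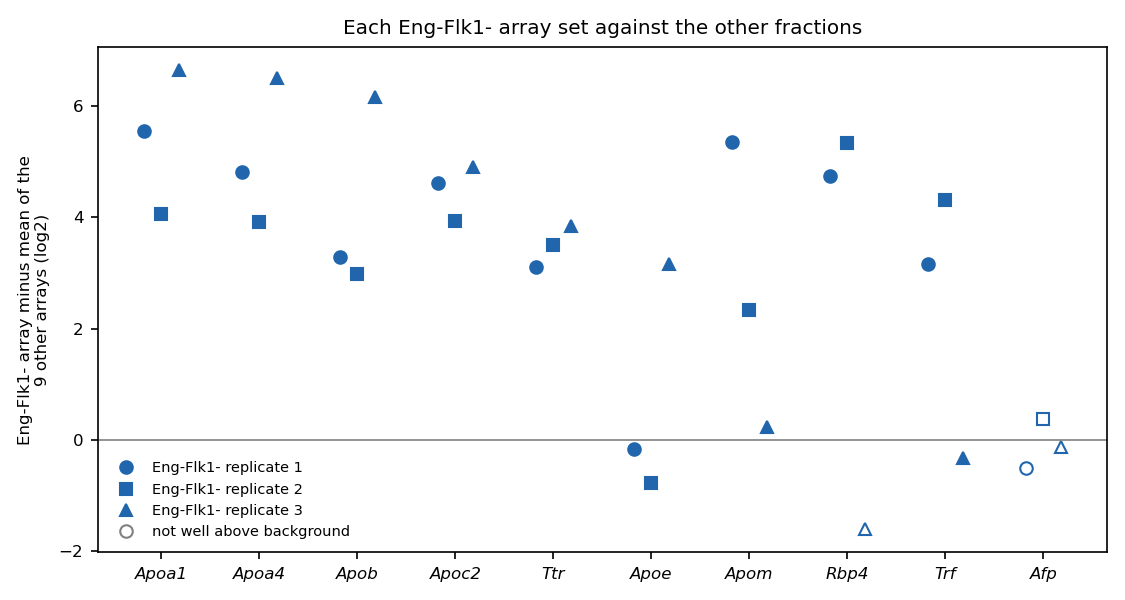
Level on each Eng-Flk1- array minus the mean of the 9 arrays of the other fractions (log2), by gene and replicate, with open symbols where the probe was not well above background. All 3 arrays are well above 0 for Apoa1, Apoa4, Apob, Apoc2 and Ttr, only replicate 3 is for Apoe, and replicate 3 is near or below 0 for Apom, Rbp4 and Trf.

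Slides bear on all comparisons with Eng-Flk1-. Slide 1 held the 3 Eng-Flk1- arrays and Eng-Flk1+ replicate 1, slide 2 the other 2 Eng-Flk1+ arrays and 2 of Eng+Flk1+, and slide 3 Eng+Flk1+ replicate 3 and the 3 Eng+Flk1- arrays. With slide as a fixed block 0 of 9 genes were called in each of the 3 comparisons, and of all 22720 genes 0, 0 and 16 were called for Eng+Flk1+, Eng+Flk1- and Eng-Flk1+ (1265, 1007 and 2082 at an unadjusted p under 0.05). The estimates of the 5 genes in that fit stayed negative. In Eng-Flk1+ they were -4.15 ± 1.09 for Apoa1, -4.14 ± 1.05 for Apoa4, -4.68 ± 1.30 for Apob, -3.50 ± 0.87 for Apoc2 and -4.58 ± 0.73 for Ttr, for which the limma adjusted p of 0.0954 was the lowest of the 5. In Eng+Flk1+ they ran from -4.88 for Apob to -2.64 for Apoa1, and in Eng+Flk1- from -4.89 for Ttr to -1.36 for Apoc2, both chained through other fractions. Within slide 1 alone, Eng-Flk1+ replicate 1 lay below all 3 Eng-Flk1- arrays for each of the 5 genes. Its differences there equal those of the blocked fit, and with 1 array against 3 this comparison is read as values only. No slide holds Eng-Flk1- together with Eng+Flk1+ or with Eng+Flk1-, so for these no value within a slide exists.

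The calls also rested on the number of arrays. Leaving out 1 array at a time gave 3 to 5 genes called for Eng+Flk1+, 1 to 5 for Eng+Flk1- and 4 or 5 for Eng-Flk1+. Over all genes tested the same fits called 258 to 1019, 143 to 845 and 166 to 992 in that order. In Eng+Flk1- 1 gene was called without any 1 of its own 3 arrays, and 3 without Eng+Flk1+ replicate 3, Eng-Flk1+ replicate 3 or Eng-Flk1- replicate 3. In Eng+Flk1+ 3 were called without its own replicate 1. For none of the 15 called differences did the arrays of the fractions compared overlap, so leaving out 1 array could not turn a sign. That all 180 of these refitted values were negative is therefore no test of direction.

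The 9 genes were compared with each other over the 12 arrays as a description, since the arrays share 4 fractions. Apoa1 and Apoa4 had the highest correlation (r = 0.940), followed by Apoa4 and Apoc2 (r = 0.926). Over the 9 arrays without Eng-Flk1- the same pairs had r = 0.495 and r = 0.305. Other pairs with a high r over 12 arrays had a negative one over those 9: -0.353 for Apoa4 and Apob (0.893 over 12), -0.448 for Apoa4 and Ttr (0.849), -0.216 for Apoa1 and Apob (0.843) and -0.265 for Apoc2 and Ttr (0.841). A few pairs with a lower r over 12 arrays rose instead, such as Apoa1 and Rbp4 to 0.767 (0.508 over 12) and Apoa4 and Rbp4 to 0.748 (0.435). Set against the mean of the other 8 genes, r was 0.927 for Apoa1, 0.918 for Apoa4, 0.925 for Apoc2, 0.878 for Ttr, 0.805 for Apob, 0.695 for Apom, 0.488 for Rbp4, 0.476 for Trf and 0.234 for Apoe.

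Several of these genes are neighbours on the chromosome. Apoa1 and Apoa4 stand on chromosome 9 with Apoc3 between them and Apoa5 beyond Apoa4, and Apoc2 and Apoe stand on chromosome 7 with Apoc4 and Apoc1 between them (order from RefSeq, GRCm38.p6). The neighbours did not share the called differences. Apoc3 had a difference of -0.37 for Eng+Flk1+, -0.07 for Eng+Flk1- and -0.91 for Eng-Flk1+ against Eng-Flk1-, and Apoa5 had 0.59, -0.36 and 0.25 in the same order. Apoc1, an inhibitor of lipid exchange and uptake, had -1.41, -0.01 and -1.49, and Apoc4 had 0.05, -0.48 and -1.08. None of the 4 was called (lowest limma adjusted p = 0.366, for Apoc1 in Eng-Flk1+), and no test was made of neighbours against members.

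Promoter windows of 250 bases before the start were found in the RefSeq table (GRCm38.p6) for 8 of the 10 genes, 11 windows in all. The 130 bases nearest to the start are shown for the 4 apolipoproteins that were called in each comparison with Eng-Flk1-. Capitals mark matches to the motifs searched, on both strands: the TATA box TATAAA, the GATA motifs AGATAA and TGATAA, the forkhead motifs TGTTTAC and TGTTTGC, the HNF4 motif CAAAGTCCA, the direct repeat DR1 of nuclear receptors, the HNF1 palindrome, and GTTAAT, which is the left arm of that palindrome and overlaps with it.
Apoa1 promoter, chr9:46228500-46228629, plus strand: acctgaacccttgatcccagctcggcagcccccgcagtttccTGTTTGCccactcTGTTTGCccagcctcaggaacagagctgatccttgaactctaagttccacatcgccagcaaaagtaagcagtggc
Apob promoter, chr12:7977547-7977676, plus strand: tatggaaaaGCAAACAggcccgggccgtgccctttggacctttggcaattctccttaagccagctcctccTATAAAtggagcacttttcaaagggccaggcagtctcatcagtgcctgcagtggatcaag
Apoc2 promoter, chr7:19677942-19678071, minus strand: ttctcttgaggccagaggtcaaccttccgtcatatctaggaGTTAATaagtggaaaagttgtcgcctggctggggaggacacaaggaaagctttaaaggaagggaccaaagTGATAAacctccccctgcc
Apoa4 promoter, chr9:46240714-46240843, plus strand: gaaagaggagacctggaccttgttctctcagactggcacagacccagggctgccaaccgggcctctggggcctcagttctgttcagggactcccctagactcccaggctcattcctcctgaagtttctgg

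TGTTTGC, a form of the forkhead motif, stands at 2 places in the Apoa1 window and in reverse in that of Apob, and 4.30% of all 32851 promoter windows hold it. Apob also holds TATAAA, 60 to 55 bases before the start (12.4% of all windows). Apoc2 holds TGATAA, a form of the GATA motif, 19 to 14 bases before its start (7.94%), and GTTAAT, an arm of the HNF1 motif, 89 to 84 bases before it (6.43%). The printed Apoa4 window holds none of these motifs. No motif was common to the 4 windows, and a match is a description of letters and not a binding site. Motifs also stood in searched windows of genes that were not called or not tested. The Afp window held the same forkhead form, the TATA box and the HNF1 arm. Windows of Apoe held the TATA box and the HNF1 arm, and those of Rbp4 the TATA box and the other forkhead form. The motifs were thus not confined to called genes.

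Genes of the same pathways were read from lists, which were chosen with earlier results of these data known. Genes named from a list were those with the lowest moderated F p, or were named for their role after their values were seen. Over all genes tested, 2.39% were called in either direction for Eng+Flk1+ against Eng-Flk1-, 1.46% for Eng+Flk1- and 1.91% for Eng-Flk1+. Of 9 other apolipoproteins tested 0 were called in any comparison with Eng-Flk1-, with medians of -0.03 for Eng+Flk1+, -0.07 for Eng+Flk1- and -0.91 for Eng-Flk1+. Apoa2, the second protein of high-density lipoprotein, had -3.27, -2.07 and -3.46 in that order, and Clu, clusterin, had 2.06, 1.37 and 1.48. The lowest limma adjusted p in this list was that of Clu in Eng+Flk1+ (0.0533). Apoh was well above background on no Eng-Flk1- array, and its brightness there gives only a bound: at least 6.58-fold higher in Eng+Flk1+ and at least 2.37-fold in Eng+Flk1-, not called (limma adjusted p = 0.138 and 0.367).

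None of the 14 genes of lipoprotein assembly and lipid loading was called in these comparisons. Mttp, which loads lipid onto Apob, had levels of -1.28, -0.67 and -3.07 for Eng+Flk1+, -2.54, -0.99 and -1.27 for Eng+Flk1-, and -2.76, -1.08 and -1.97 for Eng-Flk1+, against -1.11, 0.37 and 1.57 for Eng-Flk1-. Each fraction overlapped with Eng-Flk1-, and its differences were -1.95, -1.88 and -2.21 (limma adjusted p = 0.299, 0.340 and 0.218). Mia3, which helps to load large cargo into transport vesicles, had -2.71, -1.96 and -1.43, also not called.

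Among 17 genes of lipoprotein receptors and remodelling, 1 fell for Eng+Flk1+ and for Eng+Flk1- and 0 for Eng-Flk1+. It was Cubn, cubilin, the receptor on visceral endoderm that takes up Apoa1 and other ligands. Cubn had levels of -2.38, -3.43 and -5.57 for Eng+Flk1+, -4.46, -1.38 and -0.31 for Eng+Flk1-, and -1.37, -1.03 and -2.85 for Eng-Flk1+, against 3.06, 2.56 and 3.55 for Eng-Flk1-. No array of another fraction reached those of Eng-Flk1-. Its differences were -6.85 ± 1.08 for Eng+Flk1+ (limma adjusted p = 0.00953), -5.11 ± 1.08 for Eng+Flk1- (0.0495) and -4.81 ± 1.08 for Eng-Flk1+ (0.0539). Lrp2, megalin, which acts together with cubilin, had -2.64, -2.94 and -1.64, and Amn, which anchors cubilin, had -0.71, 0.14 and -0.64, none called.

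Retinol and iron handling gave 0 called genes in the 3 comparisons, of 11 tested each. Stra6, the receptor for Rbp4, had differences of -1.42 for Eng+Flk1+, -1.37 for Eng+Flk1- and -1.53 for Eng-Flk1+, not called (limma adjusted p = 0.132, 0.167 and 0.108). Crabp1, which binds retinoic acid in cells, had 0.48, 0.94 and 2.53, and the ferritin light chain gene Ftl1 had -1.21, -0.53 and -0.68, none called. Of 18 other plasma proteins 1 fell in Eng+Flk1-, the fibrinogen chain gene Fga (-2.03, limma adjusted p = 0.0449), and 0 were called in the other comparisons. Of 17 transcription factors of visceral endoderm and liver 1 rose in Eng+Flk1+, Foxa3, which was well above background on no Eng-Flk1- array and at least 5.51-fold higher in Eng+Flk1+ (limma adjusted p = 0.0469). Gata4 had -0.74, -0.87 and -0.98 and Foxa2 -0.18, -1.09 and -1.57, none called.

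**Figure D5:**
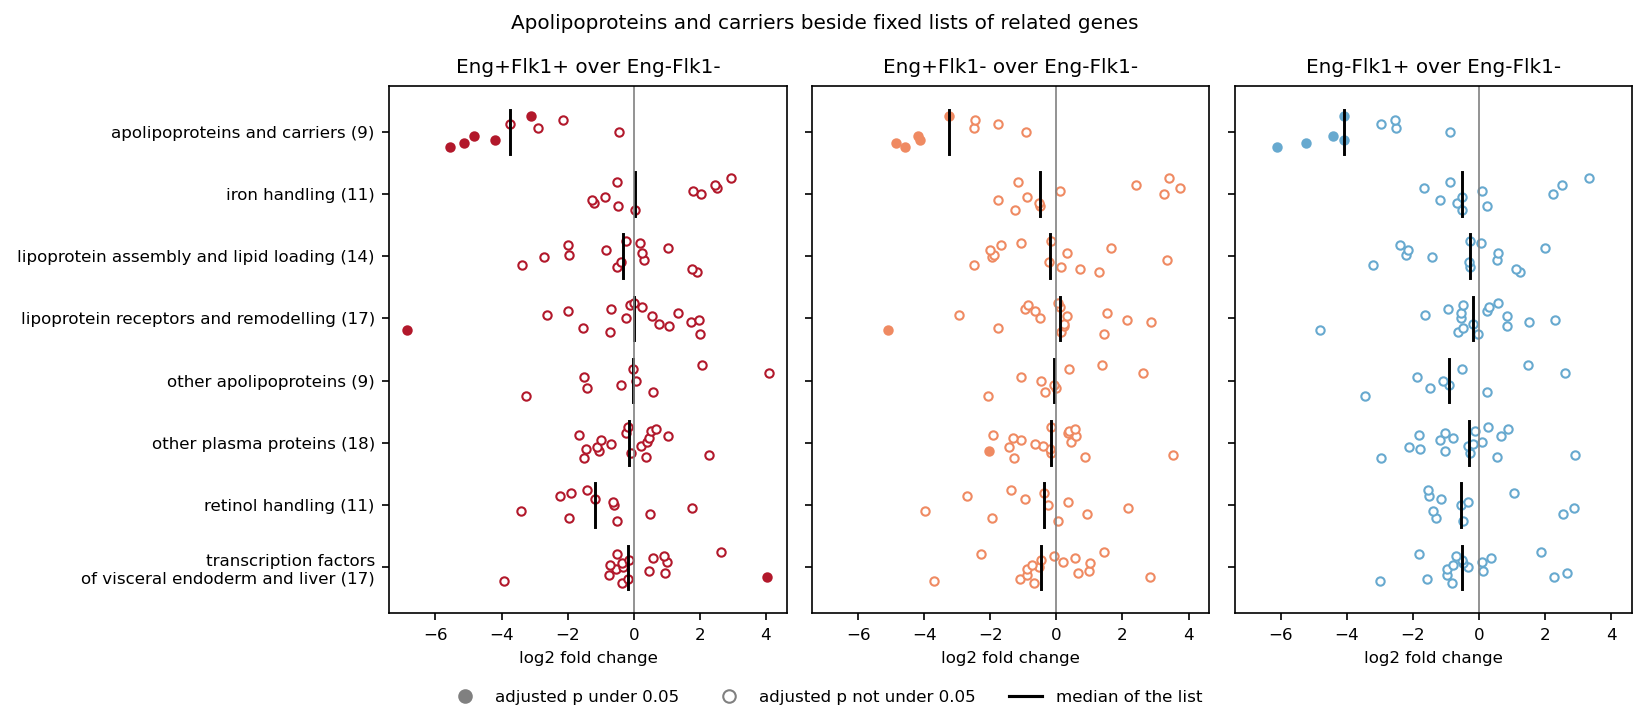
Log2 fold change of each tested gene over Eng-Flk1-, by list, for Eng+Flk1+, Eng+Flk1- and Eng-Flk1+, filled where the adjusted p was under 0.05, with the list's median as a line. The apolipoproteins and carriers have medians of -3.73, -3.26 and -4.07, while the medians of the other 7 lists lie between -1.17 and 0.11.

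Markers of several cell types moved with Eng-Flk1-. All 17 visceral endoderm markers on the array, none of them among the 10 genes, were well above background on all 12 arrays. Their mean level was 0.41 to 1.42 on the Eng-Flk1- arrays, against -0.33 to -0.09 for Eng+Flk1+, -0.38 to 0.0025 for Eng+Flk1- and -0.39 to -0.02 for Eng-Flk1+. Emb and Cubn, 2 of the 17, fell in Eng+Flk1+ and in Eng+Flk1-, and Emb alone, 1 of the 17, fell in Eng-Flk1+, with medians of -0.74, -1.09 and -1.56. Emb, embigin, a surface glycoprotein, had differences of -3.41 ± 0.41, -3.05 ± 0.41 and -2.26 ± 0.41 in that order. Hnf4a, a nuclear receptor that drives apolipoprotein genes in liver, had -0.32, -0.53 and -0.33, not called.

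Adult globin genes, listed with decidua and maternal blood, moved the same way. Of the 6 genes of that list tested 3 fell in each comparison, Hba-a1, Hba-a2 and Hbb-bt, copies of which may share probe signal. Hba-a1 had mean levels of -1.84 for Eng+Flk1+, 0.83 for Eng+Flk1- and -1.22 for Eng-Flk1+, against 8.38 for Eng-Flk1-. The list's mean level was -1.84 to -0.83 for Eng+Flk1+, -1.68 to -0.45 for Eng+Flk1- and -2.11 to -1.32 for Eng-Flk1+, against 1.96 to 2.52 for Eng-Flk1-. Ptprc, the common leukocyte surface marker, had 0.30, -0.52 and -0.84, not called, and 6 or 7 of 8 listed genes were well above background on each array. Of 9 epiblast genes tested 3, 1 and 1 fell in that order, Pou5f1 in Eng+Flk1+ and Eng-Flk1+ (-3.13 and -3.14). Of 8 markers of definitive endoderm and axial mesoderm 1, 1 and 0 fell. The part of each cell type in the apolipoprotein differences was not tested.

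The genes whose levels over the 12 arrays were most like the mean of the 9 genes were looked up among 11707 others that varied with an SD of at least 1. Hbb-bt, an adult beta globin, came first (r = 0.967), followed by Sh3gl3, an endophilin (r = 0.955), and Eraf, a chaperone of alpha globin (r = 0.918). Krtap6-5 (r = 0.915), Pou5f1 (r = 0.910), Hba-a2 (r = 0.907), Igsf9 (r = 0.900), Gbx2 (r = 0.894), Hba-a1 (r = 0.893) and Clic6 (r = 0.889) made up the rest of the first 10. Each had its highest mean in Eng-Flk1-. Hbb-bt, for example, averaged 1.62 for Eng+Flk1+, 2.10 for Eng+Flk1- and 1.61 for Eng-Flk1+, against 5.67 for Eng-Flk1-. These correlations over 12 arrays of 4 fractions are given as a description.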

How the data were processed

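RNA of 12 samples of sorted embryo cells was read on 1-colour Agilent arrays. Per the file headers, the deposited intensities are background-subtracted and detrended signals of Agilent Feature Extraction (version 10.5.1.1), with probe positions in mm8. The amplification is PCR-based, per the labels' protocols, so levels may be compressed or uneven. Flags on each spot come from the same deposited files, with further columns not used here.

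From the deposited intensities, log2 signal minus the 75th percentile of each array was taken after control spots were set aside. The percentile was taken with outlier spots included, and the levels leave these spots out. Spots of a probe were averaged, and the probe with the highest mean stood for a gene. limma 3.58.1 in R 4.3.3 (with the data.table package, version 1.17.8) was fitted on 12 arrays with 4 fractions as groups and adjusted over 22720 genes. Intervals are at 95% and errors beside differences are standard errors. A gene dim on all arrays of a fraction has only a bound: the bright mean over the higher of the lowest well-measured signal and its own on each dim array. The fit was tried on simulated data with a common spread per gene in all fractions and no slide effect. That trial says nothing about the uneven spread or the slides of these arrays. Array number limits the precision.

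Probe names were updated through RefSeq, by accession for 24375 probes, by symbol for 2619 and by synonym for 1514, and 8019 kept the file's name. Named genes are Eng, Kdr, the 10 genes, up to 4 of each list with the lowest moderated F p, and the 10 most alike by correlation. Beyond these, genes were named for their role or place after their values were seen: Apoc3, Apoc4, Apoa5, Amn, Hnf4a and Ptprc. The genes and lists were chosen with earlier results of these data known. Alternatives were normexp, quantile normalization, the authors' deposited intensities (each array divided by its median), other filters and probe rules, slide, replicate number, array weights and leaving out arrays. The main fit did not treat the replicate numbers as a pairing.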

Additional observations from a re-analysis of the deposited data

How the results depend on the processing

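All 365 alternative values of the 15 called differences from Eng-Flk1- stayed negative, 281 of them called and 84 not. Of these values 180 came from leaving out 1 array, which could not turn a sign because the groups did not overlap. The other 185 were negative too, but many of these could not turn a sign either. Other filters, every probe on its own, only the compared fractions and the replicate block leave the difference of means as it was. Array weights and slide 1 alone cannot turn a sign where arrays do not overlap. The count of negative values is thus no test of direction. By gene 36 of 73 stayed called for Apob, 54 for Apoa1, 62 for Ttr, 64 for Apoa4 and 65 for Apoc2. With slide as a fixed block 0 of 9 genes were called in each comparison with Eng-Flk1-, and 0 on slide 1 alone, where 1 Eng-Flk1+ array stands against 3 of Eng-Flk1- and the lone array is assumed to vary like those 3, so that this count says nothing about stability. With array weights 2 were called for Eng+Flk1+, 0 for Eng+Flk1- and 3 for Eng-Flk1+. With only the 2 fractions compared in the fit the counts were 2, 1 and 1 in the same order. With no filter on dim probes 3 were called in Eng+Flk1-. The interaction had 1 called gene under normexp, with every probe on its own and with slide as a random block. Leaving out 1 array gave 3 to 5, 1 to 5 and 4 to 5 called in that order, and 0 to 2 for the interaction (1 without Eng-Flk1- replicate 1 and 2 without Eng-Flk1- replicate 2). The replicate block gave 4, 4 and 4, and whether the numbers pair the samples is not settled. In their deviations 18 same-numbered pairs of arrays correlated at -0.09 to 0.13, 1 of them over 0.1, against 0 of 36 other pairs. Of 12 arrays 7 correlated best with an array of their own number. The cause of these changes was not tested. Signal over background limits Afp and Rbp4 most.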

Other observations

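Marker lists of other cell types moved against Eng-Flk1- as well, in both directions. Over all genes tested 1.98% were called higher and 0.409% lower for Eng+Flk1+, 1.23% and 0.224% for Eng+Flk1-, and 1.64% and 0.273% for Eng-Flk1+. Of 12 endothelial genes tested 9 rose for Eng+Flk1+ and 4 for Eng-Flk1+, with median log2 differences of 4.41 for Eng+Flk1+, -0.05 for Eng+Flk1- and 3.44 for Eng-Flk1+. These counts and medians include Kdr, the gene of the sorting marker Flk1, which rose in both (7.83 and 7.31). Since the fractions were sorted on Flk1, its rise is not a separate result. Sox18, a transcription factor of endothelium, had log2 differences of 6.31 for Eng+Flk1+ and 4.20 for Eng-Flk1+ (limma adjusted p = 0.000429 and 0.00549). Of 8 genes of allantois and extraembryonic mesoderm 2, 3 and 2 rose for Eng+Flk1+, Eng+Flk1- and Eng-Flk1+, among them the growth factor Bmp4 (log2 differences of 4.89, 6.20 and 4.82). Of 12 trophoblast genes 3 rose for Eng+Flk1- (Elf5, Rhox9 and Esrrb), and 1, Cdx2, fell for Eng+Flk1+.

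Of 10 primitive erythroid genes 2, 1 and 2 fell in that order. The embryonic globin gene Hbb-bh1 had log2 differences of -5.26 for Eng+Flk1+ and -5.08 for Eng-Flk1+, both called, and Eraf fell in all 3 comparisons. Among 8 genes of definitive endoderm and axial mesoderm, Cer1, a secreted inhibitor of nodal and BMP signals, was well above background on no array of Eng+Flk1+ or Eng+Flk1-. It was at least 248-fold lower in Eng+Flk1+ and at least 232-fold lower in Eng+Flk1- than in Eng-Flk1- (limma adjusted p = 0.00198 and 0.00434). Hhex, a homeobox gene of endoderm and endothelium, rose for Eng+Flk1+ and Eng-Flk1+ (log2 differences of 4.17 and 4.34). Of 9 genes of parietal endoderm 1, Col4a1, rose for Eng+Flk1+ (log2 difference 2.13, limma adjusted p = 0.0486).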
